A study of Mus musculus with 9 samples.

Results

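The 6 simple epithelial keratin genes Krt7, Krt8, Krt18, Krt19, Krt20 and Krt23 were followed in intestinal epithelial cells of newborn mice. They were chosen by gene symbol, with earlier results of these data known. Each was read by the brightest of the probe sets (groups of short probes for 1 transcript) that carry its symbol alone. All 6 were measured, through 8 such probe sets, among 18193 genes on 9 Affymetrix arrays. Values are log2 RMA values (background-corrected, normalized signal, in which 1 unit is a doubling).

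The cells came from pups killed at postnatal day 0, with 3 arrays per genotype. Rescue pups carried the intestinal epithelial knockout of Tfr1 (Tfr1 IEC-KO) together with ROSA26 Tfr1R654A/+, an added receptor with the R654A change. Knockout pups were Tfr1 IEC-KO alone, and control pups, called wildtype in the labels, were Tfr1fl/fl. Tfr1, the product of Tfrc, is the receptor that brings transferrin-bound iron into cells. Cells were shaken off small intestine and proximal colon after 30 min in 2 mM EDTA and passed through a 70 µm mesh, with no sort by surface marker given. The labels name neither the driver of the knockout nor how many pups an array holds, so the p-values measure only the spread between these arrays, which may be technical.

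Keratins are the intermediate filaments of epithelium, and a filament forms only when a type I and a type II chain pair. In simple, single-layered epithelium the main pair is Krt8 (type II) with Krt18 (type I). Intestinal cells add the type I chains Krt19 and Krt20, Krt20 being typical of the mature cells of the upper villus, while Krt7 (type II) is better known from ducts and bladder. Krt23 is a type I keratin of epithelium whose partner is less well studied. Krt8, Krt18 and Krt19 also occur in mesothelium, and Krt7 and Krt19 in pancreatic ducts.

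The probe sets for Tfrc do not check the deletion, because the part of the transcript they read was not analysed here. The brightest spanned 9.07 to 11.2 with knockout and 9.88 to 10.8 with control RNA (change 0.04 ± 0.51, standard error, adjusted p = 0.973). Another 2 averaged 10.9 and 8.83 in rescue arrays, 5.88 and 4.31 in knockout arrays, and 6.15 and 4.67 in control arrays, and were thus far higher in rescue arrays than in the others. Epithelial identity was clear in every array: 11 of 12 pan-epithelial markers were measured, none of them dim (in the lowest 40% of a group's gene means), and Epcam ranged from 12.9 to 13.5. Knockout arrays stood apart from each other, with pairwise correlations across genes of 0.951 to 0.985, against 0.994 to 0.996 in control. Fibroblast markers (12 of 12 measured) had medians 0.24 to 0.61 above the control mean in rescue arrays, and 3.66, 3.03 and 0.30 above it in replicates 1, 2 and 3 of the knockout. Rescue arrays also differed in sex-linked transcripts: the Y-linked Eif2s3y read 9.36 to 9.70 there and 2.34 to 2.88 in the other arrays, so for every rescue comparison genotype and sex cannot be told apart.

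The stretches just upstream of the keratins that rose in knockout cells, and of Krt7, which did not pass the test, are shown so that the genes can be compared. RefSeq's table (GRCm38.p6) held a window for 5 of the 6 genes, and the 250 bases before the annotated start are printed from 5′ to 3′ on the gene's strand. Capitals mark matches to 7 short motifs searched on both strands.
Krt20, chr11:99438154-99438403, minus strand: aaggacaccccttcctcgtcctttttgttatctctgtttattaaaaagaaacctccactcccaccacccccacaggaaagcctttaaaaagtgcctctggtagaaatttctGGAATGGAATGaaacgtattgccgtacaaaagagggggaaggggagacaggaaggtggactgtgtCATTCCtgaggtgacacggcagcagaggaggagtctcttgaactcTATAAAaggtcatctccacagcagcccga
Krt23, chr11:99493121-99493370, minus strand: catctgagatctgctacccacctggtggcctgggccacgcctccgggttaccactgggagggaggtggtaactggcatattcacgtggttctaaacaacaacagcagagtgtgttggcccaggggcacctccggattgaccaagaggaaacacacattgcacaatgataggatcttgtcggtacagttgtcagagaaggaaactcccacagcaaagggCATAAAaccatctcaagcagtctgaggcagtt
Krt8, chr15:102004343-102004592, minus strand: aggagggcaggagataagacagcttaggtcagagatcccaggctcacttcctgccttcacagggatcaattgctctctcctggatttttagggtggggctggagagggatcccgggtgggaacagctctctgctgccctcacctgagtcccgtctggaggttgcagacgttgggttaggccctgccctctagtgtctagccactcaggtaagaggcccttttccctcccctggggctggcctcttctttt
Krt18, chr15:102027966-102028215, plus strand: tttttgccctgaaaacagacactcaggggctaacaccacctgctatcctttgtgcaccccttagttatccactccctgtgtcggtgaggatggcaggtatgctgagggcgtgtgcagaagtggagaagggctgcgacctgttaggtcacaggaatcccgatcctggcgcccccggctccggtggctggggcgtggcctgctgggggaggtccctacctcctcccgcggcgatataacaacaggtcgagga
Krt7, chr15:101412153-101412402, plus strand: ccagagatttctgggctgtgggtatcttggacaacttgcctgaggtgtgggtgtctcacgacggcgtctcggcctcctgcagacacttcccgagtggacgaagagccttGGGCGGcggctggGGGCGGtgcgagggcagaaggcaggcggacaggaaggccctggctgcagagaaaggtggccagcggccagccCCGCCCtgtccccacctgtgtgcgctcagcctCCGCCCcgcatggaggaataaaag

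The Krt20 window held TATAAA, the TATA box, once. It also held the TEAD motif CATTCC 3 times, 2 of these overlapping by a base. Of all 32851 windows of this length, 12.4% held the TATA box and 12.6% the TEAD motif. In Krt23 the sole match was CATAAA (CDX motif), present in 10.8% of windows. It lay 32 to 27 bases before the start, close to where Krt20 held TATAAA (29 to 24). Krt7 held GGGCGG (GC box) 4 times, and 32.7% of windows held it at least once. Neither TGANTCA (AP-1, 6.75% of windows), GTTAAT (HNF1, 6.43%) nor CAAAGTNCA (HNF4, 1.19%) was found in any of the 5, and the Krt8 and Krt18 windows held none of the 7 motifs, although a TATAAA crosses the annotated start of Krt8, at the edge of its window. A match is a run of letters and was not tested as a binding site.

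Comparing knockout with control asks what loss of the receptor does to the keratin make-up of the epithelium. Knockout cells had more transcript of 5 of the 6 keratins, and only Krt7 did not pass. The gains differed in size: Krt20 was 4.41-fold, Krt23 3.25-fold and Krt19 3.13-fold higher, whereas the main pair, Krt8 and Krt18, rose 1.60-fold and 1.33-fold. Over all genes 14.1% passed the test in this comparison and 5.29% passed as higher. Knockout arrays lay wholly above control for the same 5 keratins, as did 12.7% of all genes. The median change of the 6 keratins was 1.16, beside -0.04 for all genes. Because the 6 were chosen with earlier results of these data known, the values over all genes do not test the list.

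**Figure D1:**
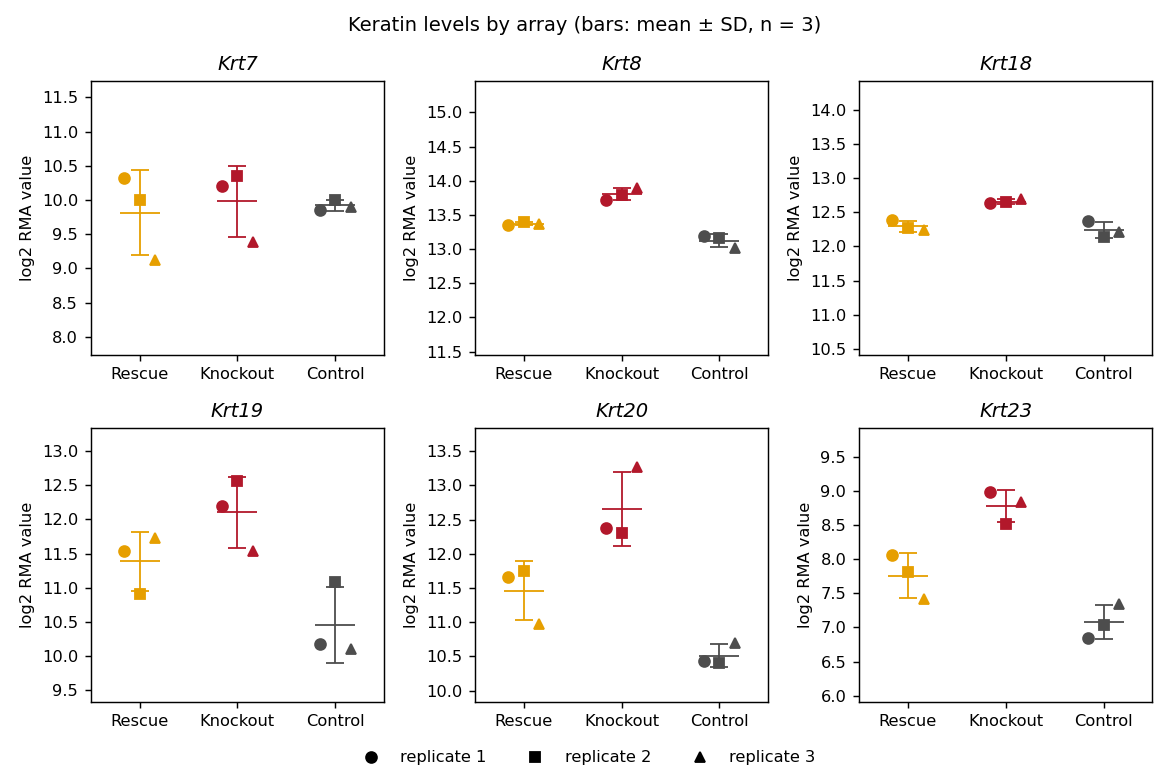
Level of each keratin (log2 RMA value, vertical axis spanning 4 units in every panel) in the rescue, knockout and control arrays. Symbols are single arrays, with horizontal bars for the mean and error bars for the SD of 3 arrays. For Krt8, Krt18, Krt20 and Krt23 the 3 knockout arrays lie above all rescue and control arrays, while the Krt7 groups overlap.

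Krt8, the main type II chain of simple epithelium, read 13.72, 13.79 and 13.89 in knockout arrays against 13.19, 13.16 and 13.02 in control arrays. Every knockout array lay above every control array, and the spread within groups was small (13.80 ± 0.09 against 13.12 ± 0.09, SD, n = 3 each). The change was 0.68 ± 0.09 (standard error, adjusted p = 0.00308). The other 2 probe sets of Krt8, both of a type open to signal from related genes, rose by 0.75 ± 0.10 and 0.58 ± 0.09 when tested over all probe sets (adjusted p = 0.00382 and 0.00575).

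Its type I partner Krt18 read 12.63, 12.65 and 12.69 in knockout arrays against 12.365, 12.14 and 12.21 in control arrays. The groups did not overlap, and the knockout values were nearly equal. The change, 0.42 ± 0.09 (adjusted p = 0.0222), was the smallest of the 5 called. It missed the threshold without control replicate 2 (adjusted p = 0.0902) or 3 (adjusted p = 0.093). It also missed with the fibroblast marker mean as a covariate (0.47 ± 0.14, adjusted p = 0.0693) and with only the compared groups fitted (adjusted p = 0.0559). With replicate 3 as the only knockout array the change was 0.45.

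Krt20, the keratin of mature villus cells, read 12.37, 12.31 and 13.27 in knockout arrays against 10.43, 10.40 and 10.70 in control arrays. All knockout arrays were far above control, and replicate 3, the knockout array with the lowest fibroblast signal, was the highest. The change was 2.14 ± 0.29 (adjusted p = 0.00311). With replicate 3 as the only knockout array, where the spread comes from the other genotypes alone, it was 2.76. With the fibroblast marker mean as a covariate it was 2.78 ± 0.35 (adjusted p = 0.00468).

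Krt23 read 8.98, 8.52 and 8.84 in knockout arrays and 6.85, 7.03 and 7.35 in control arrays. The gap between the groups was wider than the spread within either of them. Its change of 1.70 ± 0.20 had the lowest adjusted p of the 6 (0.00194).

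Krt19, found from crypt to villus and in ducts, read 12.20, 12.57 and 11.53 in knockout arrays and 10.17, 11.09 and 10.10 in control arrays. Control replicate 2 stood well above the other control arrays, yet still below the lowest knockout array. The change was 1.65 ± 0.35 (adjusted p = 0.0188), and the call depended on single arrays. It missed the threshold without control replicate 1 or 3 (adjusted p = 0.0741 and 0.078) and without knockout replicate 1 or 2 (adjusted p = 0.0537 and 0.0543). With knockout replicate 3 alone the change was 1.08, and with the fibroblast covariate 0.98 ± 0.46, which did not pass (adjusted p = 0.225).

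Krt7 read 10.21, 10.36 and 9.39 in knockout arrays against 9.86, 10.003 and 9.90 in control arrays. Knockout replicates 1 and 2 were above control and replicate 3 below it. The change was 0.06 ± 0.33 (adjusted p = 0.932), and its 95% interval, -0.69 to 0.81, includes both a fall and a rise of the size seen for Krt8.

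**Figure D2:**
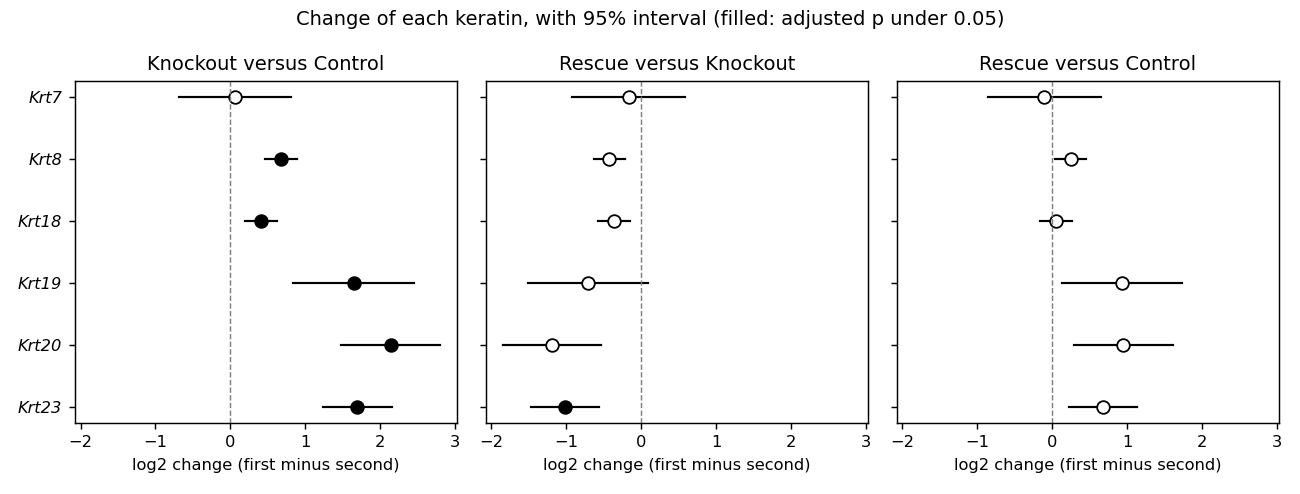
Change of each keratin in the 3 comparisons (log2, first-named genotype minus second), with limma's 95% interval from 3 arrays per group. Filled symbols passed an adjusted p of 0.05: 5 genes between knockout and control, Krt23 alone between rescue and knockout, and 0 between rescue and control.

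Markers of mesothelium, pancreas and urothelium, where some of these keratins occur, varied between the knockout arrays. Mesothelial markers (7 of 7 measured, 4 dim in knockout and 5 in control arrays) had medians of 1.11, 2.33 and 0.03 above control in replicates 1, 2 and 3 of the knockout. That is the order of Krt19 and Krt7, both highest in replicate 2 and lowest in replicate 3. The order is not particular to mesothelium. Goblet medians were 0.59, 1.03 and 0.52 in those replicates. Medians of gastric markers (7 of 9 measured, 2 dim) were 0.40, 0.65 and -0.11. The other keratins did not share this order: Krt8, Krt18 and Krt20 were highest in replicate 3 and Krt23 in replicate 1. For 8 pancreatic markers the median was -0.09, 1.38 and 0.51, and the list mean spanned 6.73 to 8.29 in knockout against 6.77 to 6.89 in control. The pancreatic list held chiefly genes of digestive enzymes and no duct marker, so it does not show whether duct cells were present. For the 5 urothelial markers the median was 0.12, -0.04 and 0.30 in those replicates, against -0.07 to 0.04 in control, and 2 of the 5 were dim in both genotypes. The part of these cells in the keratin changes was not tested, and in bulk RNA a change in the number of cells of a type cannot be told apart from a change in RNA per cell. In replicate 3, where fibroblast and mesothelial medians were 0.30 and 0.03, Krt8, Krt18, Krt19, Krt20 and Krt23 lay 0.77, 0.45, 1.08, 2.76 and 1.76 above the control mean, and Krt7 lay at -0.53.

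**Figure D3:**
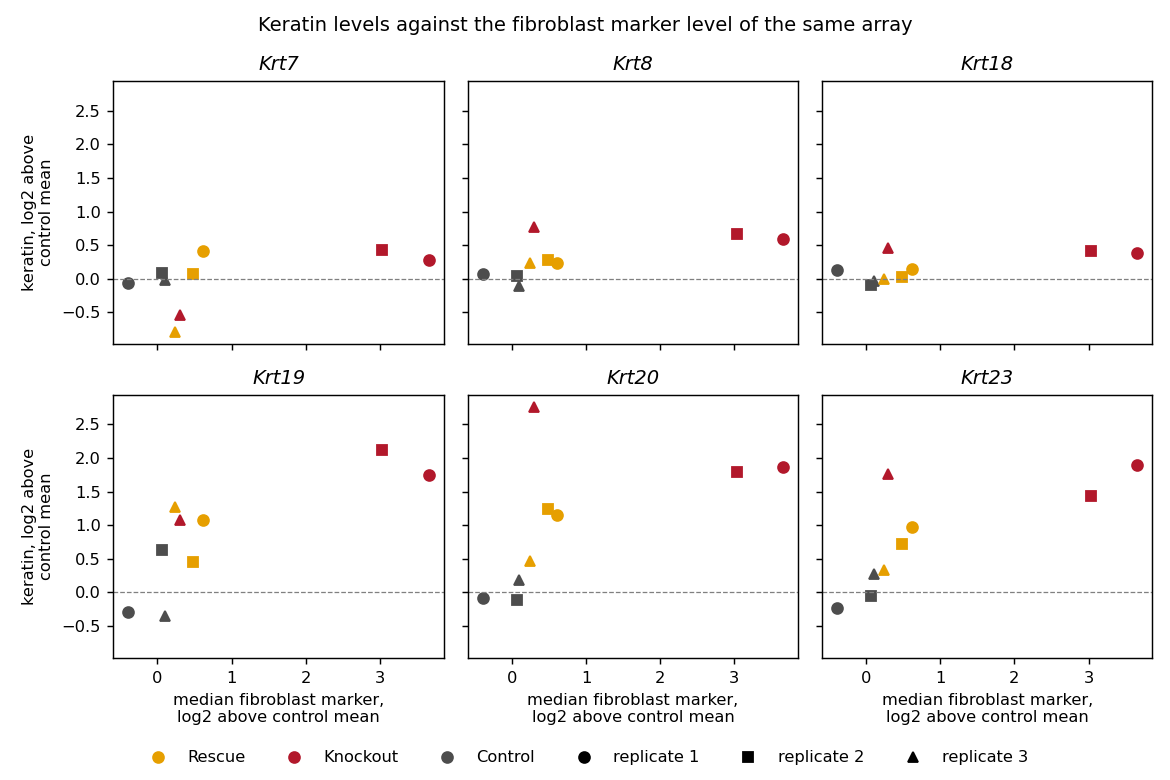
Each keratin (log2 above its control mean, vertical) against the median of 12 fibroblast markers in the same array (log2 above the control mean, horizontal) for the 9 arrays, coloured by genotype, with symbols for replicates. Knockout replicate 3 sits at 0.30 on the horizontal axis; of the 3 knockout arrays it is the highest for Krt8, Krt18 and Krt20, between the others for Krt23, and the lowest for Krt7 and Krt19.

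Of 14 enterocyte markers measured, 3 were lower in knockout cells and 0 higher, 5 had an unadjusted p under 0.05 in limma's test, and the list's median change was -0.27. Goblet cell markers (3 of 8 higher, 0 lower) and enteroendocrine markers (6 of 8 higher, 0 lower) had median changes of 0.51 and 1.08. All 5 tuft cell markers measured were dim in knockout arrays, and 0 passed limma's test (1 with an unadjusted p under 0.05). The pan-epithelial list had 2 of 11 higher and 2 lower, with a median change of 0.19. Of all 18193 genes, 963 passed as higher (5.29%) and 1596 as lower.

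The type I keratins were also set against Krt8, the type II chain they can pair with. Within the same array, Krt20 minus Krt8 was higher in knockout than in control by 1.46, Krt23 minus Krt8 by 1.02 and Krt19 minus Krt8 by 0.97, while Krt18 minus Krt8 was lower (-0.26). Knockout and control arrays did not overlap for Krt20, Krt23 and Krt18, and they overlapped for Krt19. An exact permutation test of 3 arrays against 3 (two-sided) cannot go below p = 0.1, the value reached for those without overlap, and 12 differences were tested (adjusted p = 0.24 for each of these 4). By the root mean square difference of their profiles over the 9 arrays, each taken from its own control mean, Krt8 and Krt18 were the most alike of the 15 pairs (0.20), then Krt20 and Krt23 (0.41), and Krt7 with Krt20 the least alike (1.45). The profiles were not scaled, so the size of each gene's change weighs heavily in these values. Krt7, which did not pass, lay 0.44 from Krt18.

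The same measure over all other genes gave the nearest profiles to each of the 5 keratins called. Nearest to Krt20 were Dusp6 (0.23), Capn2 (0.25) and Sprr1a (0.25), where the median gene lay 1.42 away. Emp1 (0.17), Csrnp2 (0.21) and Sgce (0.21) were nearest to Krt23. Krt19 had 9230114K14Rik (0.24), Ccnd2 (0.28) and Tc2n (0.31). Closest to Krt8 were Cgnl1 (0.08), D5Ertd579e (0.11) and Uhrf1bp1l (0.11), and to Krt18 Plcg2, Tprgl and Dync1i2 (each 0.07).

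Few keratins outside the 6 passed the test. Of 42 other keratin genes measured, 1 was higher in knockout cells and 0 lower. Over all genes 14.1% passed and 5.29% passed as higher. The median change of the 42 was -0.03, and 28 of them were dim in all 3 genotypes. None of 20 keratins of hair and its root sheath passed in limma (1 had an unadjusted p under 0.05), and of 20 keratins of epidermis and other layered epithelia 1 did. That gene was Krt12, the type I keratin of corneal epithelium. It read 7.99, 7.66 and 8.91 in knockout arrays against 5.99, 6.10 and 6.14 in control arrays, at least 4.32-fold higher since control was dim (2.11 ± 0.31, adjusted p = 0.00459). As for Krt20, knockout replicate 3 was the highest array. The Krt12 probe set is of a type open to signal from related genes. With probe sets of such types left out, the rise of Krt12 was 2.64 ± 0.33 (adjusted p = 0.0023).

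**Figure D4:**
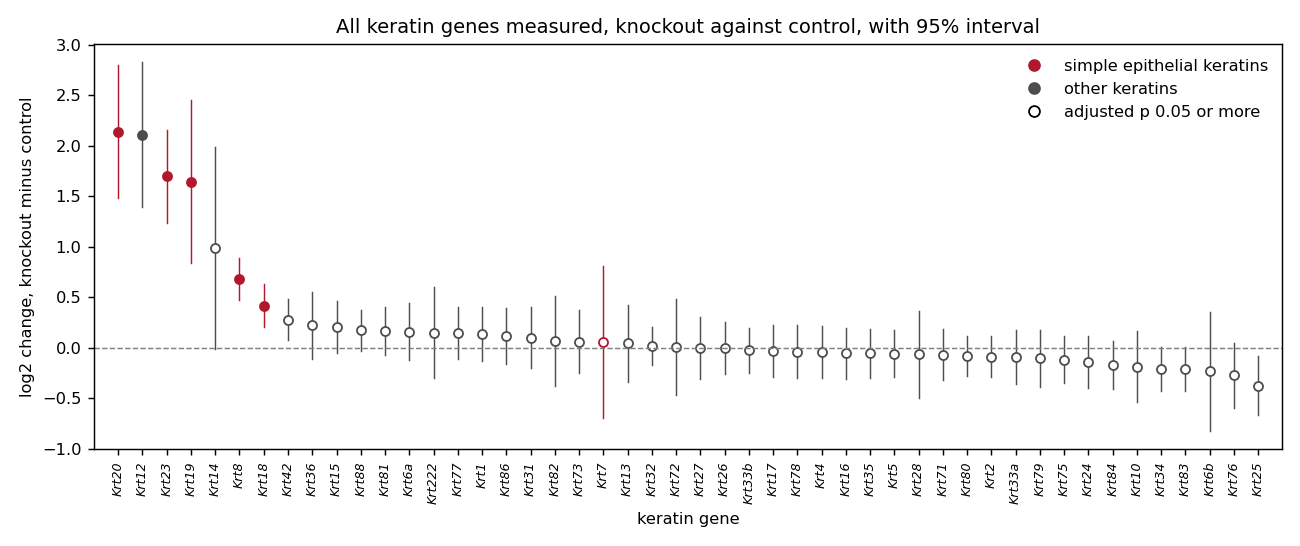
Change between knockout and control (log2, vertical, with limma's 95% interval) for the 6 simple epithelial keratins and 42 other keratin genes, in order of size. Krt20, Krt12, Krt23 and Krt19 lie between 1.65 and 2.14, and most other keratins lie close to 0.

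By their order in the RefSeq annotation, Krt12, Krt20 and Krt23 are consecutive protein-coding genes of the type I keratin cluster on chromosome 11, a feature noticed after their values were seen. Of 24 keratin genes measured on that chromosome, these 3 and Krt19 passed the test as higher. Over all genes 14.1% passed and 5.29% passed as higher. Krt10, the gene before Krt12, changed by -0.18 (adjusted p = 0.484), and the genes that follow Krt23, Krt39 and Krt40, were not analysed here. On chromosome 15, Krt8 and Krt18 lie next to each other at 1 end of the type II cluster and were the 2 called of 24 measured, whereas Krt78, the keratin gene before Krt8, changed by -0.04 (adjusted p = 0.868).

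Genes of proteins that bind or anchor keratin filaments moved in both directions. Of 20 measured, 5 were higher and 1 lower in knockout cells, with a median change of 0.20, where 14.1% of all genes passed and 5.29% passed as higher. Eppk1, which encodes epiplakin, a keratin-binding plakin, read 9.58, 9.35 and 9.08 in knockout arrays against 11.13, 10.84 and 11.01 in control arrays. It fell by 1.66 ± 0.17 (adjusted p = 0.00114), with no overlap between the groups. Ppl, the gene of the desmosomal plakin periplakin, rose by 1.23 ± 0.13 (adjusted p = 0.00132), and Dsg2, the desmosomal cadherin of simple epithelium, rose by 0.95 ± 0.14 (adjusted p = 0.00516). Sfn, the 14-3-3 protein of epithelia, rose by 0.99 ± 0.23 (adjusted p = 0.0261), a call lost without control replicate 1 (adjusted p = 0.0805) or 3 (adjusted p = 0.102). The remaining genes called, Plec and Dsc2, were named after their values were seen. Plec encodes the linker plectin and rose by 0.87 ± 0.22 (adjusted p = 0.0315), read by a probe set of a type open to signal from related genes. Dsc2, a desmosomal cadherin gene, rose by 0.47 ± 0.11 (adjusted p = 0.0282).

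Among 15 other intermediate filament genes 2 were higher and 1 lower, again beside 14.1% of all genes called. Lmna, of the nuclear lamina, read 9.61, 9.35 and 8.62 in knockout arrays against 7.02, 7.30 and 7.03 in control arrays, a rise of 2.07 ± 0.27 (adjusted p = 0.00274). Its order within the knockout, lowest in replicate 3, was that of the fibroblast markers. The rise was 1.33 ± 0.25 with the fibroblast covariate (adjusted p = 0.0179) and 1.498 with replicate 3 as the only knockout array. With the probe sets of a gene averaged it was 1.10 ± 0.10 (adjusted p = 0.000562). Synm, which encodes synemin, rose by 0.57 ± 0.11 (adjusted p = 0.0109), a call lost without control replicate 3 (adjusted p = 0.058), and by 1.29 ± 0.13 with its probe sets averaged (adjusted p = 0.000922). The lens filament gene Bfsp1 was at least 2.33-fold lower, since knockout was dim (-1.22 ± 0.19, adjusted p = 0.00607). With knockout replicate 3 alone Synm changed by 0.56 and Bfsp1 by -1.03. With the fibroblast covariate Synm changed by 0.59 ± 0.16 (adjusted p = 0.0556) and Bfsp1 by -0.99 ± 0.29 (adjusted p = 0.0657), and neither passed. Of the caspases that cut type I keratins, Casp6 was measured and did not pass limma's test (change -0.59).

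Comparing rescue with knockout asks whether the R654A receptor moves the keratins of cells without the normal one. In rescue arrays all 6 keratin means were lower than in knockout arrays, and 1 keratin, Krt23, passed the test, at 2.02-fold. Over all genes 2.31% passed and 1.08% passed as lower. The median change of the 6 was -0.57, beside 0.04 for all genes. Rescue lay wholly below knockout for Krt8, Krt18, Krt20 and Krt23, as did 7.5% of all genes.

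Krt23 read 8.06, 7.81 and 7.42 in rescue arrays, below the 8.52 to 8.98 of knockout arrays. Its change was -1.02 ± 0.20 (adjusted p = 0.0427). The call held without knockout replicate 3 and was lost without each of the other 8 arrays in turn (adjusted p = 0.0531 to 0.129). With knockout replicate 3 as the only knockout array the change was -1.08. Krt23 passed this comparison under 7 of the 19 alternatives, and it did not pass with the fibroblast covariate.

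Krt20 read 11.66, 11.75 and 10.97 in rescue arrays against 12.37, 12.31 and 13.27 in knockout arrays. Each rescue array was below each knockout array, and rescue replicate 3 was the lowest. The change of -1.19 ± 0.29 did not pass (adjusted p = 0.077). It passed without knockout replicate 3 (-0.88, adjusted p = 0.0355) and with the fibroblast covariate (-1.65, adjusted p = 0.0241). With knockout replicate 3 as the only knockout array it was -1.81.

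Krt8 read 13.36, 13.40 and 13.36 in rescue arrays, all below the 13.72 to 13.89 of knockout arrays. Its change of -0.43 ± 0.09 had an adjusted p of 0.052. It passed without knockout replicate 3 (adjusted p = 0.0275) and with the fibroblast covariate (adjusted p = 0.0311). Krt18 read 12.38, 12.27 and 12.23 in rescue arrays, a change of -0.36 ± 0.09 (adjusted p = 0.0896). Both members of the main pair thus lay below knockout in every rescue array.

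Krt19 read 11.54, 10.90 and 11.72 in rescue arrays and overlapped with knockout, where replicate 3 read 11.53 (change -0.71 ± 0.35, adjusted p = 0.313). Rescue replicate 3, the highest of the rescue arrays for Krt19, also had the highest pancreatic median, 1.02, where replicates 1 and 2 had -0.08 and -0.01. Krt7, which also occurs in pancreatic ducts, was lowest in that replicate, and the pancreatic list held no duct marker. Mesothelial medians were 0.22, 0.23 and 0.42 in rescue replicates 1, 2 and 3, goblet medians 0.72 to 1.13 and enteroendocrine medians 0.40 to 0.62. The part of these cells in the rescue values was not tested. Krt7 read 10.33, 9.99 and 9.12, the widest spread of any keratin in rescue arrays (change -0.17 ± 0.33, adjusted p = 0.836). The order of Krt7 within rescue, highest in replicate 1 and lowest in replicate 3, was also that of the fibroblast median (0.61, 0.49 and 0.24). In the knockout, Krt7 was highest in replicate 2 and the fibroblast median in replicate 1. A link between them was not tested.

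The keratin-binding genes with the largest knockout changes also differed between rescue and knockout. Eppk1 read 10.88, 10.43 and 10.89 in rescue arrays, 1.40 ± 0.17 above knockout (adjusted p = 0.00828), and Ppl was lower by 1.02 (-1.02 ± 0.13, adjusted p = 0.00993). These were the 2 of 20 that passed, beside 2.31% of all genes. Krt12 read 6.74, 6.78 and 6.05 in rescue arrays and fell by 1.66 ± 0.31 (adjusted p = 0.0369), a call lost without each array but knockout replicates 2 and 3 in turn (adjusted p = 0.0715 to 0.124).

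**Figure D5:**
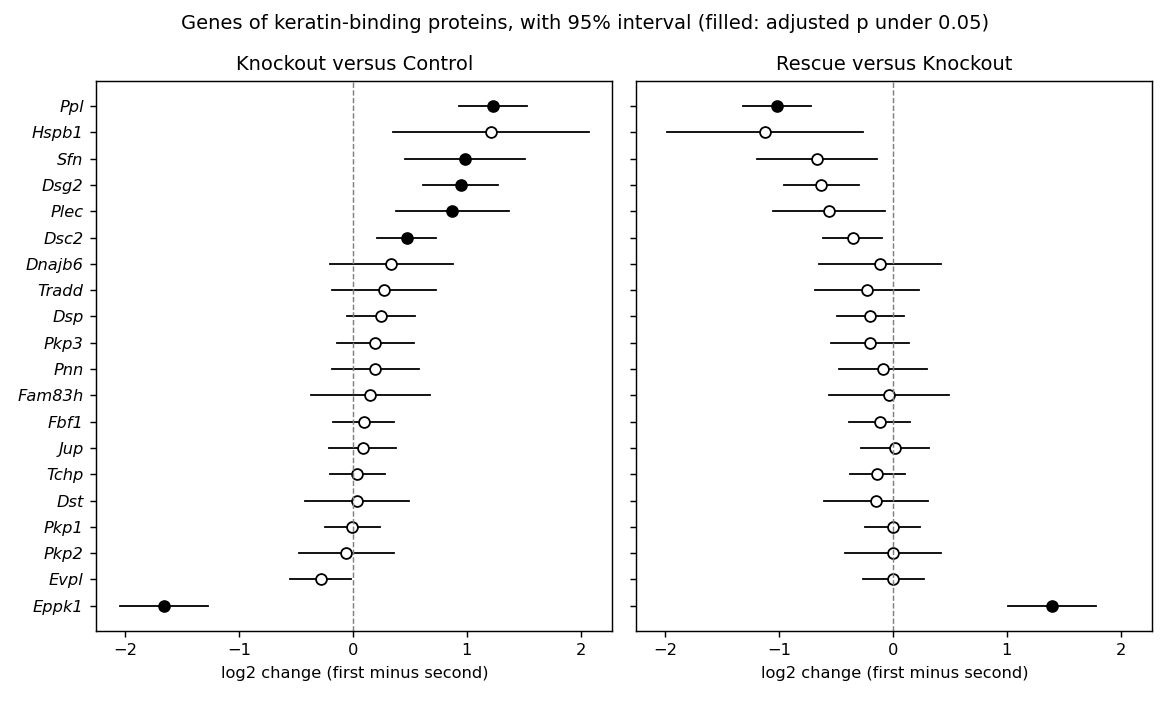
Change of 20 genes of keratin-binding proteins (log2, first-named genotype minus second) between knockout and control and between rescue and knockout, with limma's 95% interval; filled symbols passed an adjusted p of 0.05. Eppk1 is the one gene called lower in knockout than in control, and Eppk1 and Ppl are called in both comparisons.

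Comparing rescue with control asks what difference from floxed cells is left. No keratin of the 6 passed limma's test, in which 0.126% of all genes were called, although 4 had an unadjusted p under 0.05. The rescue means were 1.94-fold higher for Krt20, 1.91-fold for Krt19, 1.60-fold for Krt23 and 1.19-fold for Krt8. Rescue arrays lay wholly above control for Krt20, Krt23 and Krt8, as did 6.74% of all genes. The 3 comparisons share arrays, so their values are not independent.

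For Krt20 the change was 0.95 ± 0.29 (95% interval 0.30 to 1.61, adjusted p = 0.426), with rescue replicate 3 (10.97) close to the highest control array (10.70). For Krt23 it was 0.68 ± 0.20 (0.22 to 1.14, adjusted p = 0.414), and for Krt8 0.25 ± 0.09 (0.04 to 0.46, adjusted p = 0.583). Krt19 differed by 0.93 ± 0.35 (0.13 to 1.74, adjusted p = 0.614), and control replicate 2 (11.09) lay above rescue replicate 2 (10.90). Krt18 was nearest to control, at 0.05 ± 0.09 (-0.16 to 0.27, adjusted p = 1), and Krt7 differed by -0.11 ± 0.33 (-0.86 to 0.65, adjusted p = 1). These intervals leave room for differences in either direction for Krt18 and Krt7. For the others they reach rises of 0.46 (Krt8), 1.14 (Krt23), 1.61 (Krt20) and 1.74 (Krt19).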

How the data were processed

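Total RNA of 9 samples was measured on Affymetrix arrays. The deposited values are log2 RMA values for 45101 probe sets, made by the authors with RMA and Partek 6.5 per the submitters' processing notes; the role of each tool is not given in the sources used here. They were used as deposited. Column medians lay between 5.93 and 6.00, and 0 of 36 array pairs were identical. The 2016 annotation of the array gave a single symbol to 34945 probe sets (array controls left out), several to 932 and none to 9211; 18031 of 18193 genes matched a current RefSeq gene.

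Groups came from the sample titles. Using limma 3.58.1 in R 4.3.3 (lmFit, eBayes, two-sided), 1 mean per genotype was estimated from the 9 arrays together, with p-values adjusted over all genes by Benjamini and Hochberg and a threshold of 0.05. It was tested on simulated data. Folds are lower bounds, written with at least, if the dimmer genotype's mean was among the lowest 40% of that genotype's gene means. Precision is limited by the number of arrays (median standard error 0.147). Named genes were the keratins, Tfrc, up to 4 genes of each list with the smallest p among those called, and the 3 nearest profiles per keratin called. Of 195 symbols listed, 181 were measured. The keratins and lists were chosen with earlier results of these data known. The fit was repeated under 19 alternatives.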

Additional observations from a re-analysis of the deposited data

How the results depend on the processing

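Leaving out 1 array at a time, between 3 and 5 keratins passed between knockout and control (3 without control replicate 3), between 0 and 3 between rescue and knockout (3 without knockout replicate 3 and 0 without each other array) and 0 between rescue and control. The change of Krt7 then ranged from -0.13 to 0.36, -0.47 to 0.18 and -0.36 to 0.24. Over all genes these counts ranged from 936 to 4998, 105 to 2793 and 2 to 136. With knockout replicate 3 as the only knockout array, assumed to vary like the other groups, the keratin counts were 3, 2 and 0, and with the fibroblast covariate 3, 2 and 0. Array weights gave 5, 4 and 1 (Krt20, adjusted p = 0.0432). Between rescue and knockout 2 keratins passed with an intensity trend and 2 with averaged probe sets, and limma called 0 when only the compared groups were fitted (4 at an unadjusted p under 0.05). The change of Krt7 turned sign between knockout and control with knockout replicate 3 alone (-0.53), with the covariate (-0.69) and without knockout replicates 1 (-0.05) or 2 (-0.13). Between rescue and knockout it turned with replicate 3 alone (0.43), with the covariate (0.38) and without knockout replicate 2 (0.02) or rescue replicate 3 (0.18), and between rescue and control without rescue replicate 3 (0.24). Krt8, Krt20 and Krt23 passed between knockout and control under all 19 alternatives, Krt18 under 14 and Krt19 under 13. The 12 within-array differences kept their sign under all alternatives run. Causes were not tested.

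Counts over all genes moved with the fit. Between knockout and control 6395 genes passed with array weights and 1655 with only the compared groups. Between rescue and knockout the counts were 2453 and 30, and 1096 with knockout replicate 3 alone and 918 with the covariate. Between rescue and control they were 355 and 149, then 149 and 109, with 14 under an intensity trend and 15 after quantile normalization.

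The replicate numbers shared by the groups do not pair the arrays: deviations of same-numbered arrays correlated between -0.22 and 0.40, and not every array matched its own number best. With the replicate number as a block, 5 keratins passed between knockout and control, 0 between rescue and knockout (4 at an unadjusted p under 0.05, limma) and 0 between rescue and control (3 unadjusted); 257 and 12 genes passed in the rescue comparisons with knockout and control.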
